A study of Rattus norvegicus with 30 samples.

Results

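Maturation of the rat liver between weaning and adulthood was read from the vehicle controls of this series: 5 adult males at week 13 were set against 5 male pups on postnatal day 22. The 10 livers were chosen by their labels, as all 0 mg/kg males of both ages, from 30 livers in the series. All were Wistar Han rats given corn oil only, in a volume of 5 ml/kg by gavage. Their dams received the oil daily, 7 days a week, between gestation day 6 and postnatal day 21, and the pups themselves were gavaged until weaning on postnatal day 21. That day opened the 13 weeks, in which gavage went on 5 days a week, so the pups studied were 1 day past weaning. No pups shared a dam, nor did adults of a dose group. The 5 female pup controls of the same day, also at 0 mg/kg, served as a second pup reference. The remaining livers, 5 each from male pups, female pups and adult males given 50 mg/kg of the polybrominated diphenyl ether (PBDE) mixture DE-71, entered the fit, and the males entered the comparison of age between doses. RNA was measured on Affymetrix Rat Genome 230 2.0 arrays. All values are the authors' RMA values on a log2 scale, on which a difference of 1 is 2-fold.

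At weaning the rodent liver is still growing, and it has only recently stopped making blood cells. The animal changes over from milk, rich in fat, to solid food. Adult male rats secrete growth hormone in pulses and adult females more evenly; this pattern arises around puberty and sets many of the sex-specific genes of the liver through the transcription factor STAT5B. Imprinted growth genes such as H19 are abundant in fetal liver and are shut down after birth.

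Array correlations over all probe sets were 0.989 to 0.993 within the adults, 0.988 to 0.994 within the male pups and 0.970 to 0.981 between them. The arrays carried their labelled tissue and sex. Hepatocyte markers had a mean level of 14.39 to 14.50 in adults and 14.41 to 14.53 in male pups, where the array median was 5.74. None of the 10 was called different, and 2 were lower by less than 2-fold. With 1.51% of all genes called higher and 2.05% lower, no call among 10 is the usual outcome. These levels are also near the top of the scale, where differences may read too small. Xist averaged 3.35 in adults, 3.27 in male pups and 11.99 in female pups. Measures of RNA integrity and of hybridisation differed between the adult and male pup arrays. The difference between the 3' and 5' probe sets of Gapdh was 0.62 ± 0.18 (SD, n = 5) in adults and 1.61 ± 0.33 in male pups, with no overlap (exact permutation test, two-sided, p = 0.00794, the smallest that 5 against 5 allows). For Actb it was 2.00 ± 0.24 against 3.19 ± 0.40, and the hybridisation spikes averaged 11.83 ± 0.06 against 11.63 ± 0.07 (exact permutation p = 0.00794 for each). The pup controls lay in 1 array batch and the adults in the other, so age and batch cannot be told apart on the arrays compared. A fit with batch as a term was possible only by taking the effect of DE-71 to be equal in pups of both sexes, which widens the standard error; its values stand beside the named genes whose call it ends.

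Between adults and male pups 4508 of 31042 probe sets differed at an adjusted p under 0.01 (14.5%; limma with Benjamini-Hochberg adjustment), 1900 higher and 2608 lower in adults. Because age and batch coincide, a gene was called only when it also differed by 2-fold or more. By this rule 214 of 14217 genes rose with age (1.51%) and 292 fell (2.05%), while the median difference over all genes was -0.02. The shares of 1.51% and 2.05% are the background for each count over a list given below. The largest increases exceeded the largest decreases: 19 genes rose by a log2 of 4 or more and 6 fell by as much. The adult arrays did not overlap with the male pup arrays for 202 of the 214 and 283 of the 292, and for 2993 of all 14217 genes (21.1%). Against female pups 185 genes were called higher (1.3%) and 231 lower (1.62%), among them 161 of the 214 and 187 of the 292. With batch as a term all 214 and all 292 kept their sign, and 120 and 170 were still called. That term shifts each difference by the sex difference in DE-71 effect among pups, with 5th and 95th percentiles over genes of -0.26 and 0.29. Genes picked at 2-fold or more could therefore hardly change sign, and the kept sign is no test of batch.

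**Figure D1:**
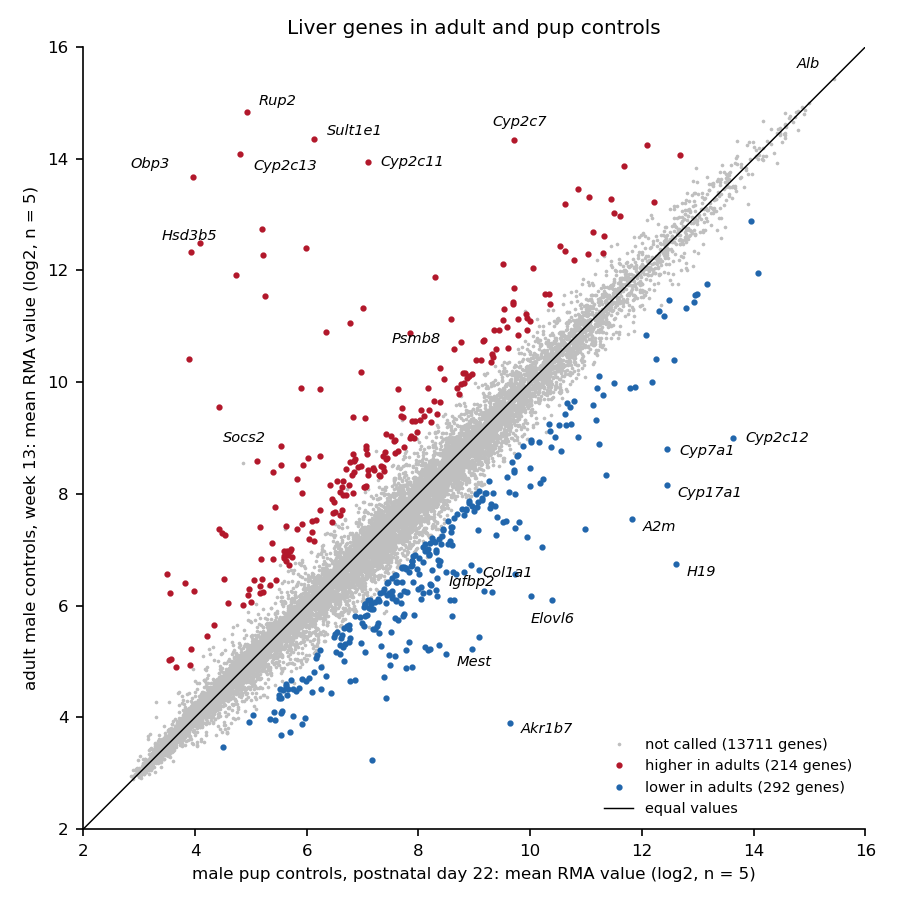
Mean RMA value (log2) of each of 14217 genes in male pup controls and in adult male controls (n = 5 each). The 214 genes called higher in adults reach log2 differences near 10, and the 292 called lower reach -5.85. Their median differences are similar in size, at 1.43 and -1.35.

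The 15 largest increases and 15 largest decreases were taken only from called genes whose adult and male pup arrays did not overlap. That separation was therefore fixed by the choice of these genes. The largest increases were led by genes known for high levels in adult male rat liver. Cyp2c11, the main male-specific cytochrome P450 and a testosterone hydroxylase, read 13.93, 13.73, 14.06, 14 and 13.99 in the 5 adults and 7.51, 6.84, 8.17, 6.98 and 5.98 in the 5 male pups. Every adult lay above every pup, and the difference was 6.85 ± 0.32 (SE; 115-fold, adjusted p = 5.53e-16). Cyp2c13, another male-specific P450, stood at 14.07, 14.19, 14.05, 14.10 and 14.05 in adults and at 4.41, 4.46, 6.45, 4.17 and 4.58 in male pups. The third pup was the highest of the pups, and the groups were 9.28 ± 0.48 apart.

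Cyp2c7 and Cyp2c12 belong to the same family and are known for higher levels in adult females than in adult males, yet they moved in opposite directions. Cyp2c7 rose from 10.40, 10.27, 8.78, 9.79 and 9.29 in male pups to 14.44, 14.32, 14.35, 14.33 and 14.20 in adults, by 4.62 ± 0.29. Cyp2c12, a steroid sulfate hydroxylase, fell from 13.59, 13.81, 13.92, 13.39 and 13.40 in male pups to 9.45, 8.50, 8.97, 8.56 and 9.51 in adults, a difference of -4.63 ± 0.17 (adjusted p = 6.52e-19). No adult array overlapped with any of the 10 pup arrays for either gene, and the female pups read 13.25 to 14.20 for Cyp2c12.

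Obp3 and Mup5 belong to the alpha-2u-globulins, small carrier proteins of male rat urine. Obp3 read 13.41, 13.83, 13.67, 13.46 and 14.02 in adults and 3.78 to 4.17 in male pups, a difference of 9.71 ± 0.12. Mup5 read 10.27 to 10.79 in adults and 3.78 to 4.01 in male pups (6.53 ± 0.11). Genes of this family are near-identical and these probe sets can read more than 1 of them, so neither value belongs surely to a single gene.

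The sequences before the start of 6 of these genes are shown because the Cyp2c genes moved both ways within 1 family. Both alpha-2u-globulin probe sets rose, though they may read the same genes. They are the 250 bases upstream of the start in RefSeq's GRCr8 assembly, written 5′ to 3′ in the gene's direction. Capitals mark TATAAA, the TATA box motif, on either strand. Of the 30 leading genes, 15 per direction, 19 had a promoter in the table used here.
Cyp2c11 (chr1:246174966-246175215, plus strand): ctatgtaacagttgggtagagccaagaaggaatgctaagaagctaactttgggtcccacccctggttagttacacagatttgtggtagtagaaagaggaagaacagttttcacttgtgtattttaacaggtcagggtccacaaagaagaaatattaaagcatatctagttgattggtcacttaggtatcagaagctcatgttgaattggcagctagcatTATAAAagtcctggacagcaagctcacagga
Cyp2c13 (chr1:248787189-248787438, minus strand): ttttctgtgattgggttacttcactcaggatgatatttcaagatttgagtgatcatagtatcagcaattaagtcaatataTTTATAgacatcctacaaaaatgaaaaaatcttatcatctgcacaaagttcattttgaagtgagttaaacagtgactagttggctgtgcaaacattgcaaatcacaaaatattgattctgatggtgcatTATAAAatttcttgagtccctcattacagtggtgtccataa
Cyp2c7 (chr1:247966144-247966393, plus strand): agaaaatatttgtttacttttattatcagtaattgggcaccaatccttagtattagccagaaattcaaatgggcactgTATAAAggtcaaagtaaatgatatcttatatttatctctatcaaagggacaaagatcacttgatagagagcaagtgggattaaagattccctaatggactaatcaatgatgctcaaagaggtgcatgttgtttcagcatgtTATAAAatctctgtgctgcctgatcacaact
Cyp2c12 (chr1:248677035-248677284, minus strand): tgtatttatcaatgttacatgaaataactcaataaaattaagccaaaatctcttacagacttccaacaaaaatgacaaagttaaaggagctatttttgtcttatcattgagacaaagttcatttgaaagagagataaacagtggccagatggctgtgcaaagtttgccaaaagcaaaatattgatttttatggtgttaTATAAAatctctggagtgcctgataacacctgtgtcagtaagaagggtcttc
Obp3 (chr5:79640676-79640925, minus strand): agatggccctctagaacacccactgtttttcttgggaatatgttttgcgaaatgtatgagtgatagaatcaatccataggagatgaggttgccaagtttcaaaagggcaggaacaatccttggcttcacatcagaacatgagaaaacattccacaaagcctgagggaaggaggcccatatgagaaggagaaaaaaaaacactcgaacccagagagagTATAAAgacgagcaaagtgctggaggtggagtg
Mup5 (chr5:79999696-79999945, minus strand): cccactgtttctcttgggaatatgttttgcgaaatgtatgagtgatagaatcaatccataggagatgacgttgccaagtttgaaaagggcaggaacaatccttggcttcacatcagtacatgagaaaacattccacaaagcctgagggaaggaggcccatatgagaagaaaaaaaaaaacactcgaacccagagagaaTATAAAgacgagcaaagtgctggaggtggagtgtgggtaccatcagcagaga

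All 6 held TATAAA, against 4328 of 33469 promoters of this length (12.9%). Its match nearest the start began 31 bases upstream in Cyp2c11 and Cyp2c7, 41 in Cyp2c13, 33 in Obp3, and 52 in Cyp2c12 and Mup5. The bases of Cyp2c13, which rose, were more like those of Cyp2c12, which fell, than those of the other Cyp2c genes: 141 of 239 aligned bases were identical without gaps (59.0%), against 38.4% with Cyp2c7 and 31.6% with Cyp2c11. Obp3 and Mup5 shared 184 of 232 bases (79.3%) at a shift of 18. Both strands were searched for 4 further motifs. TTGCNNAA, a C/EBP motif, matched in Cyp2c12, Obp3 and Mup5 (9.22% of all promoters). AGGTCA, the nuclear receptor half-site, matched in Cyp2c11 and Cyp2c7 (14.1%), and CCAAT in Cyp2c11, Cyp2c13 and Cyp2c7 (34.0%). TTCNNNGAA, the STAT5 motif, matched in none of the 6 windows (7.67%). Over the called genes TATAAA stood in 21 of 198 promoters of genes that rose (10.6%) and in 36 of 250 of those that fell (14.4%), against 1063 of 13242 promoters of genes read on the array (8.03%). A match describes the letters only.

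The other leading increases included enzymes of steroid and drug handling. Sult1e1, the estrogen sulfotransferase, read 14.24 to 14.43 in adults and 6.48, 6.43, 7.10, 5.20 and 5.47 in male pups (8.22 ± 0.35). Hsd3b5, a steroid dehydrogenase, rose by 8.41 ± 0.21, the hydroxyacid oxidase Hao2 by 7.07 ± 0.35 and the organic anion transporter Ust5r by 6.30 ± 0.35. Dhrs7l1, of the short-chain dehydrogenases, rose by 8.40 ± 0.25, the P450 genes Cyp2a2 and Cyp3a9 by 7.54 ± 0.16 and 7.19 ± 0.29, Stac3, best known from muscle, by 6.42 ± 0.43, and the aldo-keto reductase Akr1c1 by 5.13 ± 0.21. Rup2, which encodes a urinary protein, had the largest difference against male pups and a wide pup spread. It read 14.78 to 14.91 in adults, 5.66, 3.38, 8.34, 3.80 and 3.42 in male pups and 3.96, 4.43, 8.12, 7.82 and 7.84 in female pups (9.92 ± 0.79; 8.41 against female pups, where Cyp2c13 had 9.73 and Obp3 9.70), and 3 further probe sets of Rup2 were called the same way. Male pup means lay below the array median of 5.74 for 11 of these 15 genes, Rup2 among them, where arrays compress differences. Adult means of Rup2, Cyp2c13, Sult1e1 and Cyp2c7 were 14 or more, near the top of the scale, so these differences may be too small.

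**Figure D2:**
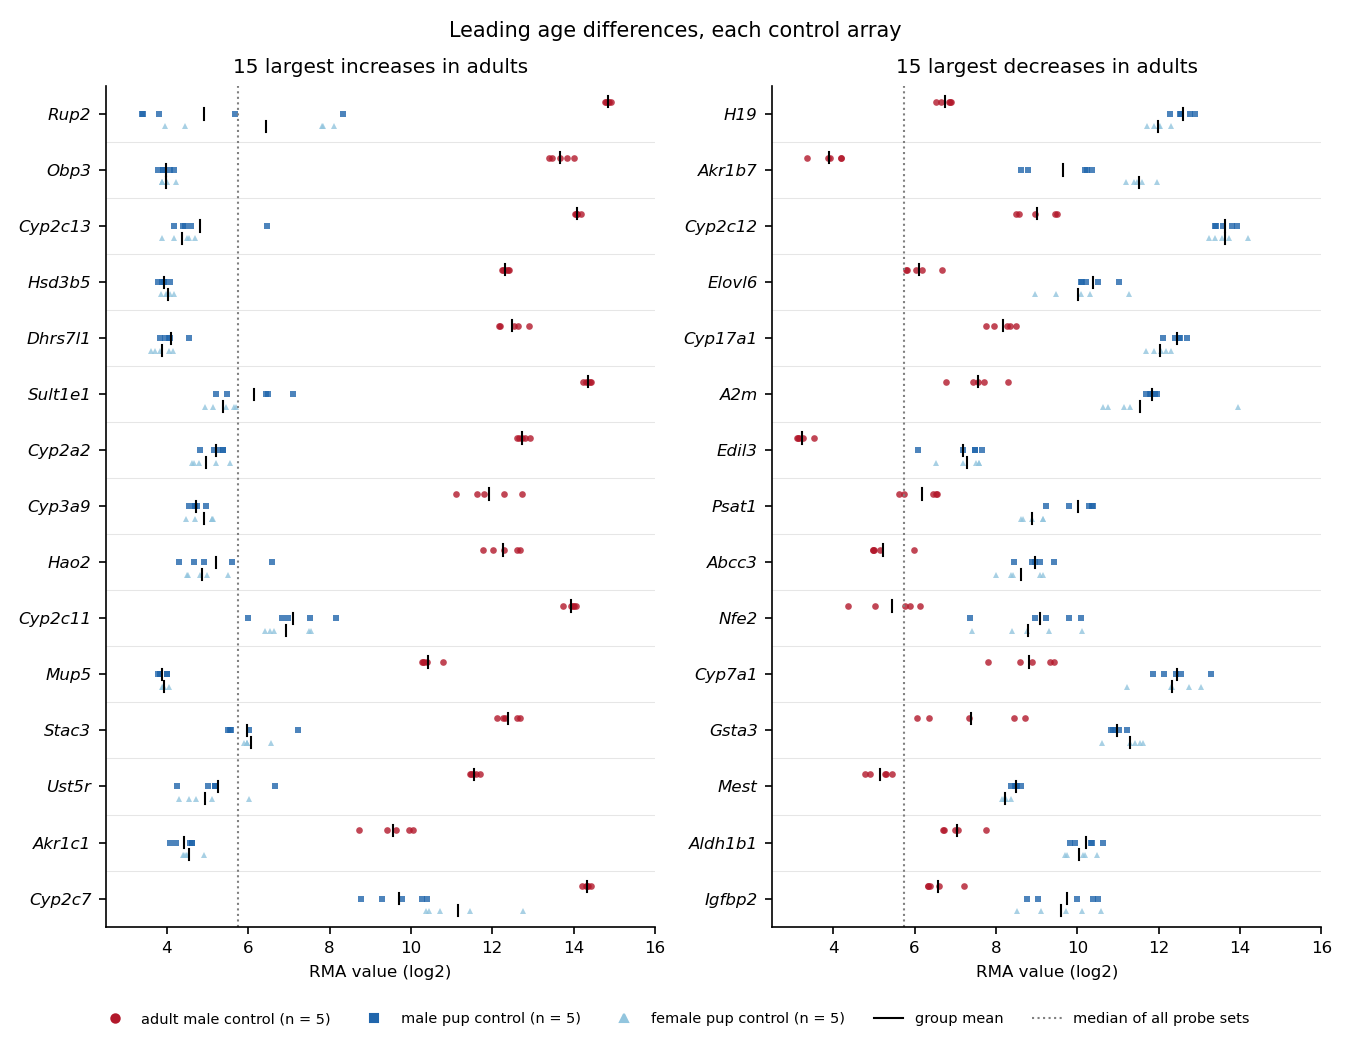
RMA value (log2) of the 15 largest increases and 15 largest decreases on each array of adult male, male pup and female pup controls, n = 5 per group. The 30 were chosen for size and for adult arrays apart from the 5 male pup arrays, as 21.1% of all genes have. In each, the 5 female pup arrays also lie on the pup side of the adults.

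H19, an imprinted noncoding RNA of fetal liver, had the largest decrease against male pups. It read 12.28, 12.54, 12.56, 12.90 and 12.77 in male pups and 6.53, 6.85, 6.64, 6.88 and 6.86 in adults, a difference of -5.85 ± 0.23 (57.8-fold, adjusted p = 6.6e-18). Akr1b7, an aldo-keto reductase, stood at 8.61 to 10.37 in male pups and at 3.35 to 4.19 in adults, a difference of -5.74 ± 0.30. The female pups stood higher still for Akr1b7, at 11.19 to 11.96, and against them its difference was -7.62 and that of H19 -5.23. The adult mean of Akr1b7 lay below the array median, so its differences may be too small.

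Further large decreases were those of Cyp17a1, the steroid 17-hydroxylase (-4.28 ± 0.28), the protease inhibitor A2m (-4.28 ± 0.41), Edil3, a secreted matrix-associated protein (-3.94 ± 0.35), the glutathione transferase Gsta3 (-3.60 ± 0.33) and the mitochondrial aldehyde dehydrogenase Aldh1b1 (-3.17 ± 0.23). Gsta3 varied among the adults, at 8.72, 8.44, 6.06, 7.33 and 6.35, and all of them lay below the male pups at 10.84 to 11.22. Nfe2, a transcription factor of erythroid cells and platelets, read 10.08, 9.24, 7.35, 9.79 and 8.96 in male pups and 4.35, 6.14, 5.03, 5.88 and 5.77 in adults, without overlap (-3.65 ± 0.41). In whole liver, fewer cells of a type and less RNA per cell cannot be told apart, for this gene and every other marker of a cell type.

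Of 17 measured male-biased liver genes 12 rose and none fell, and the median difference was 6.53. The mean over the list was 12.25 to 12.51 on adult arrays, 6.90 to 7.93 on male pup arrays and 7.05 to 7.50 on female pup arrays. Against female pups 12 were called as well. The smallest called increases were those of Cyp3a18 (1.53 ± 0.22; adjusted p = 0.019 with batch as a term) and the sulfotransferase Sult1c3 (2.60 ± 0.36). Bcl6, a repressor known for higher levels in male liver, was not called: male pups read 6.30, 9.61, 6.85, 5.19 and 5.95 and adults 8.31 to 9.05 (1.80 ± 0.63, adjusted p = 0.036). Without male pup control replicate 2 its value was 2.51 (adjusted p = 0.00112).

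Of 16 measured female-biased genes 6 fell and 3 rose (median -0.80). Beside Akr1b7, Cyp2c12 and Cyp17a1, Acsm2, a medium-chain acyl-CoA synthetase, fell by 3.07 ± 0.29, as did the hydroxysteroid sulfotransferase Sult2a6 (-2.13 ± 0.28) and the P450 Cyp2a1 (-1.01 ± 0.12). With batch as a term Acsm2, Sult2a6 and Cyp2a1 were not called (adjusted p = 0.0156, 0.0143 and 0.0459), and Cyp2a1 was under 2-fold without male pup control replicate 2 or adult male control replicate 3. The increases were those of Cyp2c7, Cyp3a9 and the histidine ammonia-lyase Hal. Hal rose by 1.01 ± 0.18, stood at 0.77 against female pups, and was under 2-fold when male pup control replicate 1, 4 or 5 or adult male control replicate 1 or 2 was left out.

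In the growth hormone and IGF axis 2 of 24 measured genes rose and 1 fell (median -0.08). These are 8.33% and 4.17%, where 1.51% of all genes rose and 2.05% fell. Ghr, the growth hormone receptor, read 12.73, 12.64, 12.60, 12.89 and 12.57 in adults and 11.58, 10.85, 11.44, 10.70 and 11.02 in male pups (1.56 ± 0.16, adjusted p = 2.27e-08). Socs2, a feedback inhibitor induced by growth hormone, read 8.37, 8.88, 8.92, 8.70 and 9.39 in adults and 5.40, 4.82, 6.11, 5.14 and 6.24 in male pups (3.31 ± 0.35, adjusted p = 2.63e-08). The groups did not overlap for either gene. Igfbp2, a binding protein of IGF that is high in early life, fell from 8.76, 10.39, 9.03, 10.52 and 9.99 to 6.37, 6.33, 7.22, 6.33 and 6.61, a difference of -3.16 ± 0.31. Igf1 itself lay at 13.92 to 14.13 in adults and 13.48 to 13.86 in male pups (0.32 ± 0.08), and Igfals, the carrier subunit of circulating IGF, differed by 0.98 ± 0.13; both were under 2-fold, Igfals not so with batch as a term (1.41) or without male pup control replicate 3 or 5 or adult male control replicate 3 or 5. Cish, another feedback inhibitor, stood at 0.90 ± 0.50 (adjusted p = 0.217).

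Of 23 measured fetal and neonatal genes 8 fell and none rose (median -0.60). Among them the imprinted Mest fell by 3.35 ± 0.18, with male pups at 8.38 to 8.60 and adults at 4.77 to 5.45. The imprinted Grb10 fell by 2.06 ± 0.15, as did Ndn (-1.32 ± 0.15) and Meg3 (-1.11 ± 0.21), and Igf2bp2, which binds Igf2 messenger RNA, fell by 1.35 ± 0.14. Meg3 stood at -0.87 against female pups and at -0.95 with the Gapdh measure as a covariate. Gpc3, a cell surface proteoglycan, fell by 1.08 ± 0.22 (adjusted p = 0.0289 with batch as a term; -0.85 against female pups), and the surface protein Cd24 fell as well (-1.04 ± 0.13). Gpc3 was under 2-fold without male pup control replicate 1, and Cd24 without male pup control replicate 4 or adult male control replicate 1. Afp, the fetal counterpart of albumin, was not called: male pups read 11.47, 8.69, 9.55, 9.71 and 10.73 and adults 8.46 to 9.39 (-1.08 ± 0.43, adjusted p = 0.0668). Igf2 lay at 5.56 to 6.02 in adults and 5.98 to 6.77 in male pups and was not called either (-0.49 ± 0.20, adjusted p = 0.073).

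Of 36 measured P450 genes of foreign compound metabolism 7 rose and 3 fell (median 0.15). Beside those named above, Cyp2d3 rose by 2.25 ± 0.18. Cyp1a1, the target gene of the aryl hydrocarbon receptor, fell from 8.13, 10.34, 9.42, 9.96 and 8.74 in male pups to 6.68, 7.23, 4.83, 6.69 and 5.77 in adults, a difference of -3.08 ± 0.44. All adults lay below all male pups. Of 19 glucuronosyl- and sulfotransferases 3 rose and 2 fell. Beside the sulfotransferases named above, the thyroid hormone sulfotransferase Sult1b1 rose by 1.83 ± 0.17 and the glucuronosyltransferase Ugt2b10 fell by 1.23 ± 0.10. Of 23 glutathione transferases Gstm2 rose by 1.91 ± 0.25, Ltc4s, the leukotriene synthase, rose by 2.61 ± 0.33 (adjusted p = 0.0166 with batch as a term), and Gsta3 fell.

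Of 25 drug and organic anion transporters 1 rose and 4 fell. Abcc3, an exporter of the basolateral membrane, fell by 3.74 ± 0.25. The canalicular sterol exporter pair Abcg5 and Abcg8 fell (-2.13 ± 0.31 and -2.55 ± 0.31); Abcg8 read 8.30, 8.57, 5.75, 7.34 and 7.52 in male pups and 4.64 to 5.36 in adults, and Abcg5 was not called with batch as a term (adjusted p = 0.0271). The exporter Abcg2 fell by 1.53 ± 0.19 against male pups and stood at -0.51 against female pups (adjusted p = 0.0653). Slc22a8, an organic anion uptake carrier, rose by 1.58 ± 0.17.

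**Figure D3:**
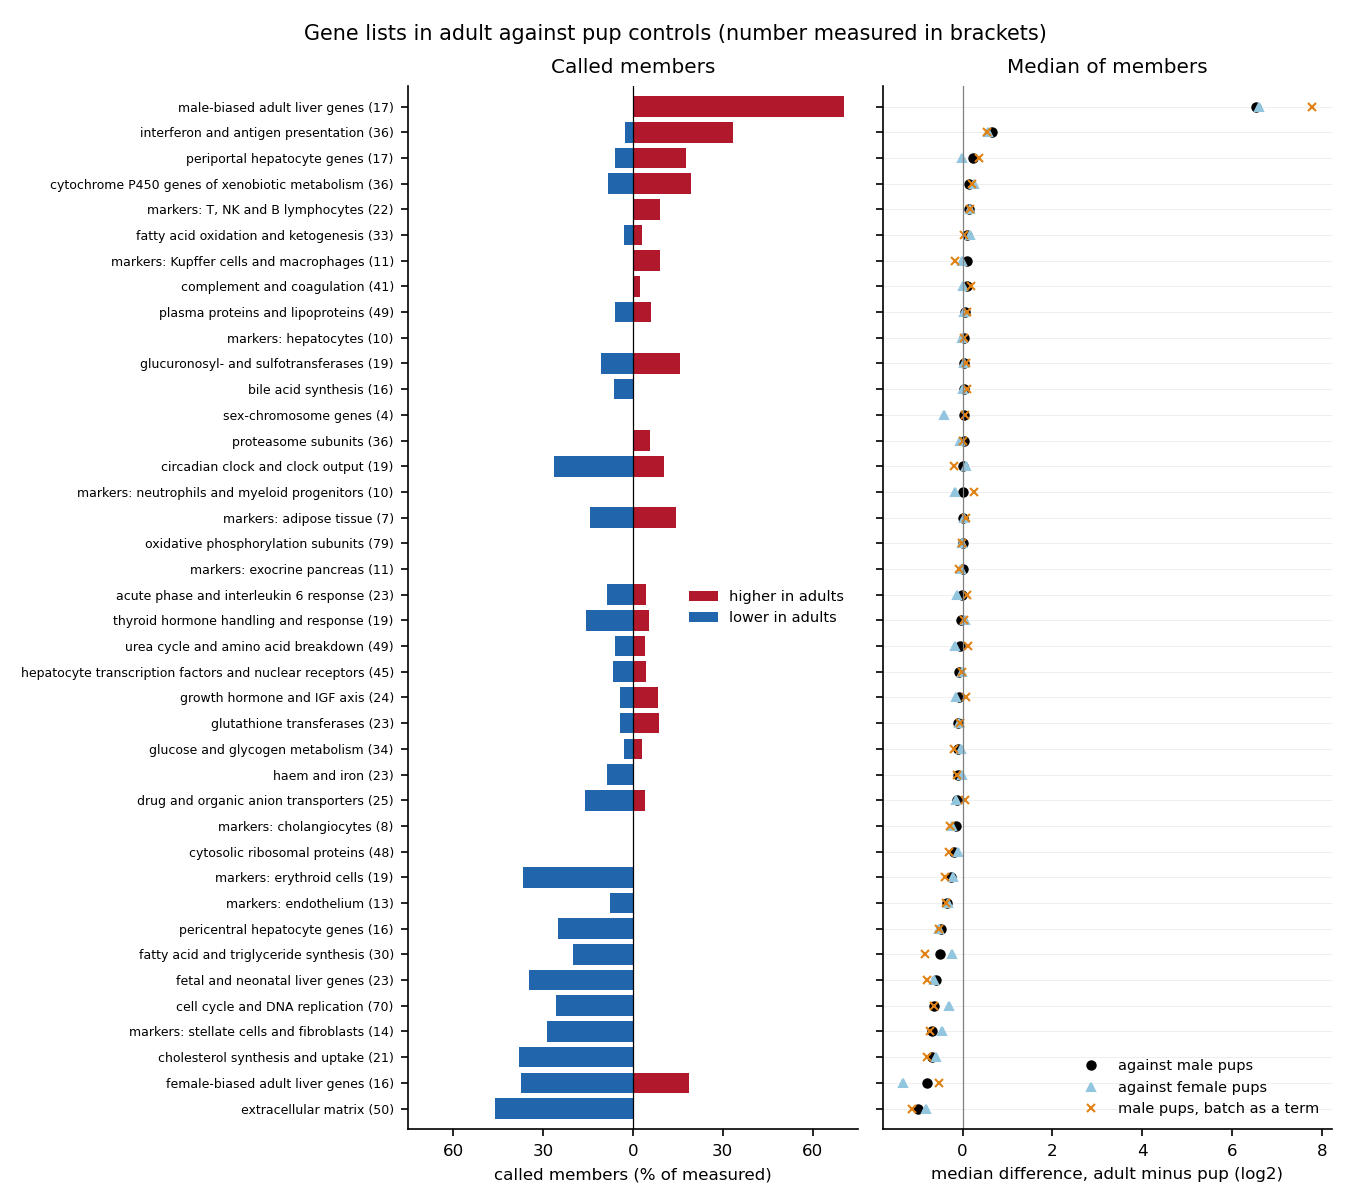
Members called higher or lower in adult than in male pup controls, as a share of each list's measured members, and the median log2 difference of each list. Male-biased genes have a median of 6.53 and extracellular matrix genes one of -1.0.

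Where genes of sterol and lipid synthesis were called against male pups, they were lower in adults. Of 21 measured genes of cholesterol synthesis and uptake 8 fell and none rose (median -0.69), against male pups; with batch as a term 1 was called lower, Lss, and 1 higher, Insig2, a sterol-responsive retention protein (0.99 ± 0.18 without batch and 1.58 with batch as a term, and over 2-fold without male pup control replicate 2 or 3 or adult male control replicate 2 or 4). Sqle, the squalene epoxidase, read 10.88, 11, 9.90, 10.60 and 10.43 in male pups and 8.18, 9.13, 8.38, 9.36 and 8.79 in adults, without overlap (-1.79 ± 0.27; adjusted p = 0.0233 with batch as a term). Lss, the lanosterol synthase, fell from 10.36, 10.33, 9.30, 10.14 and 9.90 to 8.46, 8.54, 8.31, 8.67 and 8.32, a difference of -1.55 ± 0.20. The decarboxylase Mvd fell by 1.82 ± 0.29, as did Hsd17b7 (-1.55 ± 0.23) and the sterol oxidase Msmo1 (-1.49 ± 0.21), with adjusted p = 0.0297, 0.025 and 0.0139 with batch as a term. Cyp7a1, the rate-limiting enzyme of bile acid synthesis, fell from 12.56, 13.30, 12.13, 11.85 and 12.43 to 8.88, 9.43, 7.80, 9.34 and 8.59, a difference of -3.64 ± 0.49 (-3.79 with batch as a term, adjusted p = 0.0169). It was the 1 gene called of 16 in bile acid synthesis.

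Of 30 fatty acid and triglyceride synthesis genes 6 fell and none rose (median -0.51). Elovl6, a fatty acid elongase, read 10.22, 11.02, 10.51, 10.11 and 10.08 in male pups and 5.78, 6.17, 6.03, 6.67 and 5.82 in adults (-4.29 ± 0.33). Fasn, the fatty acid synthase, read 12.03, 12.76, 12.48, 11.77 and 12.23 in male pups and 10.89, 9.91, 10.43, 10.50 and 10.36 in adults (-1.84 ± 0.27). The groups were apart for both, and Thrsp, a lipogenic regulator, fell by 1.41 ± 0.20. The citrate lyase Acly, the acyltransferase Gpam and the carboxylase Acaca fell (-1.40 ± 0.24, -1.29 ± 0.20 and -1.20 ± 0.20). Against female pups Acly and Acaca were under 2-fold (-0.75 and -0.85), and with batch as a term Gpam and Acaca had adjusted p = 0.0401 and 0.0335. Of 33 genes of fatty acid oxidation and ketogenesis 1 rose and 1 fell (3.03% each), near the 1.51% and 2.05% over all genes. The pyruvate dehydrogenase kinase Pdk4 rose by 1.29 ± 0.21 (0.69 against female pups). The coactivator Ppargc1a fell by 1.02 ± 0.12 and was under 2-fold without male pup control replicate 1 or 5 or adult male control replicate 3.

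Of 34 glucose and glycogen genes 1 rose and 1 fell (2.94% each), near the 1.51% of all genes that rose and the 2.05% that fell. Pck1, the gluconeogenic carboxykinase, rose by 1.38 ± 0.31 and the pyruvate kinase Pklr fell by 1.13 ± 0.28. Neither was called against female pups (1.08 and -0.37; adjusted p = 0.0145 and 0.425) or with batch as a term (adjusted p = 0.0409 and 0.058). Pklr also lost its call without male pup control replicate 5 or adult male control replicate 2 or 5 (adjusted p of 0.0119 to 0.0142). Enzymes of serine and asparagine synthesis had larger differences. Psat1, of serine synthesis, read 9.80, 10.28, 9.23, 10.38 and 10.36 in male pups and 6.46, 6.55, 5.74, 6.52 and 5.62 in adults (-3.83 ± 0.28). The asparagine synthetase Asns read 7.74, 7.93, 6.90, 9.07 and 8.96 in male pups and 5.25, 5.32, 5.15, 5.24 and 5.30 in adults (-2.87 ± 0.41; -1.52 against female pups). The groups did not overlap for Psat1 or Asns, and Phgdh, also of serine synthesis, fell by 2.19 ± 0.40 against male pups and stood at -0.92 against female pups (adjusted p = 0.116). Of 49 urea cycle and amino acid genes these 3 fell, and Hal and the alanine aminotransferase Gpt rose; Gpt rose by 1.49 ± 0.29 with overlapping arrays and stood at 0.59 against female pups.

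Among 49 measured genes of secreted plasma proteins 3 rose and 3 fell (median 0.06). That is 6.12% in each direction, where 1.51% of all genes rose and 2.05% fell. Apoa2, an apolipoprotein of high-density lipoprotein, rose by 2.17 ± 0.16; male pups lay at 11.56 to 12.60 and adults at 14.14 to 14.38. Serpina7, the thyroxine-binding globulin, fell from 11.02, 10.71, 11.60, 11.90 and 11.60 to 8.33, 9.21, 7.86, 8.28 and 7.96, a difference of -3.04 ± 0.39 (-3.06 with batch as a term, adjusted p = 0.0144). Beside A2m, the secreted factor Lect2 fell by 1.40 ± 0.09. The apolipoprotein Apoa4 rose by 1.72 ± 0.28 and the protease inhibitor Mug1 by 1.86 ± 0.40, and neither was called with batch as a term (adjusted p = 0.0145 and 0.243). Of 19 genes of thyroid hormone handling and response Sult1b1 rose, and Serpina7, Thrsp and the mitochondrial glycerophosphate dehydrogenase Gpd2 (-1.85 ± 0.26) fell. Of 41 complement and coagulation genes 1 was called (2.44% higher, near the 1.51% of all genes that rose). It was C6, of the membrane attack complex, which rose by 1.95 ± 0.28 (1.12 against female pups).

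Where genes of cell division were called, they were lower in adults. Of 70 measured cell cycle and DNA replication genes 18 fell and none rose, and a further 28 were lower at the adjusted p by less than 2-fold (median -0.63). Against female pups 6 were called lower at a median of -0.31, and with batch as a term 9. Mki67, a marker of dividing cells, read 5.61, 6.69, 5.58, 5.63 and 6.30 in male pups, 4.26, 5.01, 5.27, 5.81 and 5.63 in female pups and 3.80, 4.12, 3.90, 4.09 and 4.01 in adults (-1.98 ± 0.23; -1.21 against female pups). No adult overlapped with any pup. Cdca7, a replication-associated nuclear protein, fell by 1.91 ± 0.14, as did the spindle checkpoint kinase Bub1 (-1.43 ± 0.14) and the cyclin Ccnd2 (-1.09 ± 0.10; -0.80 against female pups). Of the 70 genes 27 lay below the array median in all 3 control groups.

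Extracellular matrix genes had the lowest median of the 40 lists against male pups: 23 of 50 measured fell, none rose, and the median was -1.0. Against female pups 21 were called lower (median -0.81; female-biased genes had the lower median there, -1.32), and with batch as a term 20. Col3a1, a fibrillar collagen, read 12.13, 11.92, 12.02, 11.51 and 11.86 in male pups and 10.02, 9.96, 9.67, 9.75 and 10.18 in adults (-1.97 ± 0.13, adjusted p = 2.49e-12). Col1a1 read 9.48, 9.02, 9.15, 8.38 and 8.72 in male pups and 6.40, 7.36, 6.60, 6.55 and 6.74 in adults (-2.22 ± 0.30). The groups did not overlap for either collagen. The partner chain of Col1a1, Col1a2, fell by 2.30 ± 0.23, as did the crosslinking enzymes Lox and Loxl2 (-2.12 ± 0.21 and -2.10 ± 0.13), and the basement membrane protein Nid1 (-1.86 ± 0.14). Beside this, 4 of 14 markers of stellate cells and fibroblasts fell (Col1a1, Col1a2, Col3a1 and Lum), all of them also matrix genes. Lum, a collagen-binding proteoglycan, differed by -2.68 ± 0.59 and was not called with batch as a term (adjusted p = 0.0723). Of the markers that encode no matrix protein, the receptor Pdgfrb stood at -0.61 ± 0.11, Lrat, which stores retinoid, at -0.74 ± 0.16 and desmin, Des, at -0.13 ± 0.19. The marker list's mean level was 6.85 to 6.99 in adults and 7.69 to 8.07 in male pups, and its part in the matrix result was not tested.

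Of 19 erythroid markers 7 fell and none rose (median -0.27), and the list's mean level was 5.91 to 6.39 in adults and 6.68 to 7.05 in male pups. Slc4a1, the band 3 anion exchanger of red cells, read 7.27, 7.74, 7.10, 7.15 and 8.32 in male pups and 5.36, 6.24, 5.22, 5.57 and 5.22 in adults, without overlap (-1.99 ± 0.28). The transferrin receptor Tfrc fell by 1.84 ± 0.21, as did Alas2, the erythroid enzyme of haem synthesis (-1.64 ± 0.28), and the globin Hbb (-1.07 ± 0.18; adjusted p = 0.0114 with batch as a term; -0.88 against female pups), which was under 2-fold without adult male control replicate 1 or 5. Nfe2 led this list. Of the markers 9 lay below the array median in all 3 groups; 5 were called lower against female pups and 5 with batch as a term.

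Interferon and antigen presentation genes moved the other way where they were called: 12 of 36 rose and 1 fell (median 0.66). Against female pups 10 were called higher and with batch as a term 4. Psmb8, a subunit of the immunoproteasome, read 10.37, 10.82, 10.27, 11.32 and 10.17 in adults and 9.29, 8.43, 8.51, 8.14 and 8.83 in male pups (1.95 ± 0.24, adjusted p = 4.68e-07). All adults lay above all male pups. Its partner Psmb9 rose by 1.34 ± 0.16, and no other of 36 proteasome subunits was called. The peptide transporter Tap1 rose by 1.09 ± 0.17 (0.91 against female pups; adjusted p = 0.0116 with batch as a term) and was under 2-fold without male pup control replicate 4. Cxcl9, a chemokine induced by interferon gamma, rose by 2.46 ± 0.34 (adjusted p = 0.0111 with batch as a term). The antiviral protein Rsad2 fell by 1.14 ± 0.21 (-0.82 against female pups; adjusted p = 0.0117 with batch as a term). Of 22 lymphocyte markers 15 lay below the array median in all 3 groups. The granzyme Gzma rose by 1.13 ± 0.17 and the chemokine Ccl5 by 1.22 ± 0.22, with adjusted p = 0.0794 and 0.064 with batch as a term. The lymphocyte list's mean level was 5.18 to 5.40 in adults and 4.86 to 5.16 in male pups, and its part in the interferon result was not tested. Of 11 macrophage and Kupffer cell markers the lysozyme Lyz2 rose by 1.60 ± 0.23 (adjusted p = 0.0125 with batch as a term), and the Kupffer cell receptor Clec4f stood at 0.21 ± 0.14.

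**Figure D4:**
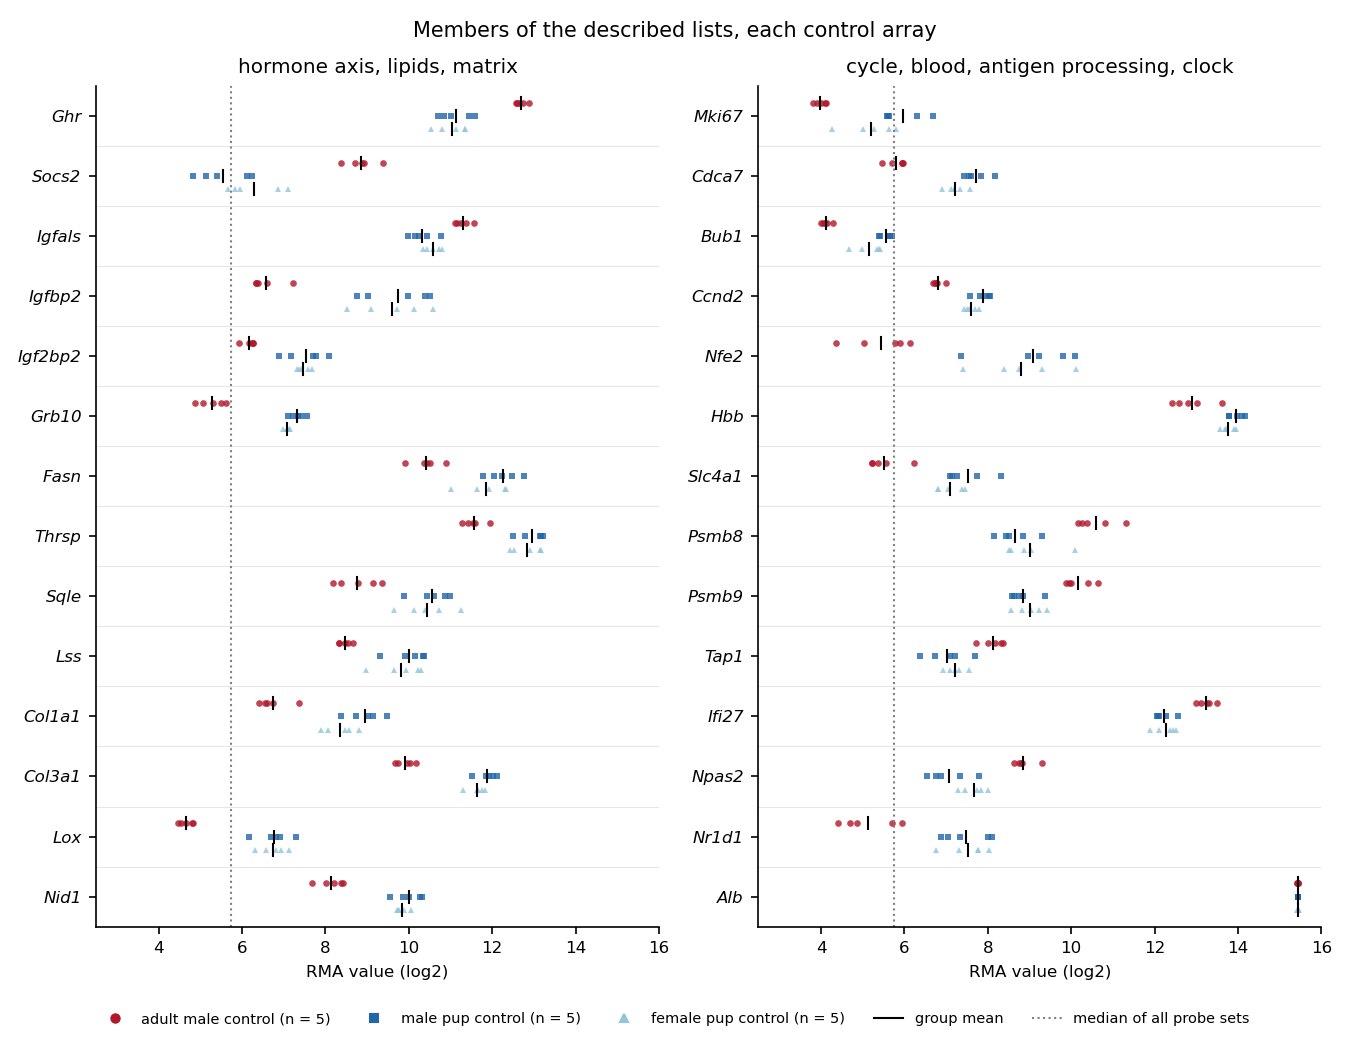
RMA value (log2) of members of the lists described on each array of adult male, male pup and female pup controls, n = 5 per group. Ghr, Socs2 and Psmb8 sit higher in adults than in male pups, and Fasn, Col3a1, Mki67 and Slc4a1 lower.

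Of 19 clock genes 2 rose and 5 fell (median 0.02). Against female pups 1 was called higher and 2 lower, and with batch as a term 1 higher and 0 lower. Npas2, a partner of the core clock activator, read 9.29, 8.82, 8.63, 8.75 and 8.80 in adults and 6.77, 6.54, 7.78, 6.88 and 7.34 in male pups (1.79 ± 0.22). The clock repressor Nr1d1 fell by 2.36 ± 0.39 (adjusted p = 0.082 with batch as a term), and the hour of collection is not given in the sources used here. Its paralog Nr1d2 fell by 1.59 ± 0.30, as did the period gene Per3 (-1.74 ± 0.33), the deubiquitinase Usp2 (-1.44 ± 0.31) and the clock output factor Hlf (-1.10 ± 0.21), with adjusted p = 0.0563, 0.0326, 0.0184 and 0.0205 with batch as a term. Against female pups Per3, Usp2 and Hlf were not called (-1.08, -0.46 and -0.67). Nampt, of NAD synthesis, rose by 1.11 ± 0.22 and was called neither against female pups (0.55) nor with batch as a term (adjusted p = 0.042), and was under 2-fold without adult male control replicate 5. Of 45 hepatocyte transcription factors and nuclear receptors 2 rose, Onecut1 by 1.78 ± 0.41 and Hhex by 1.25 ± 0.26, and 3 fell, Tbx3 (-1.48 ± 0.28), Nr0b2 (-1.43 ± 0.40) and Ppargc1a. None of these 5 was called with batch as a term (adjusted p = 0.327, 0.112, 0.203, 0.573 and 0.0638 in this order), and Nr0b2 also lost its call without male pup control replicate 2, 4 or 5 or adult male control replicate 1, 2, 3 or 4 (adjusted p of 0.0131 to 0.0353). Of 16 pericentral genes 4 fell (median -0.48): Cyp7a1, Lect2 and Tbx3, given above, and the Wnt-responsive receptor Lgr5 (-1.0 ± 0.17). With batch as a term 1 was called, Lect2 (Lgr5 had adjusted p = 0.164), and against female pups 5. Lgr5 was under 2-fold without male pup control replicate 2 or adult male control replicate 1, 4 or 5. Of 17 periportal genes 3 rose and 1 fell, with 0 called higher against female pups. Of 23 acute phase genes Crp rose by 1.36 ± 0.20 (0.86 with the Gapdh measure as a covariate), and A2m and the metallothionein Mt2A fell, the latter at -2.18 ± 0.49 (adjusted p = 0.405 with batch as a term). None of 48 ribosomal protein genes was called by limma (median -0.20), although 12 were lower by less than 2-fold. None of 79 subunits of oxidative phosphorylation was called (median 0.00; 3 higher and 4 lower by less than 2-fold). Markers of neutrophils (0 of 10), cholangiocytes (0 of 8) and exocrine pancreas (0 of 11) gave no call. With 1.51% of all genes called higher and 2.05% lower, this is the usual outcome for lists so short. In the same order 7, 4 and 9 of these markers lay below the array median in all 3 groups. Against female pups 1 neutrophil marker was called lower. The mean over the neutrophil list was 6.46 on the array of female pup control replicate 4 and 4.78 to 5.22 on the other female pup arrays. The endothelial receptor Stab2 fell by 1.22 ± 0.13 (-0.97 against female pups). Of 7 adipose markers Cidea rose by 1.73 ± 0.28 and Fabp4 fell by 1.63 ± 0.31, with adjusted p = 0.0212 and 0.0151 with batch as a term, and Adipoq stood at -0.18 ± 0.19.

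**Figure D5:**
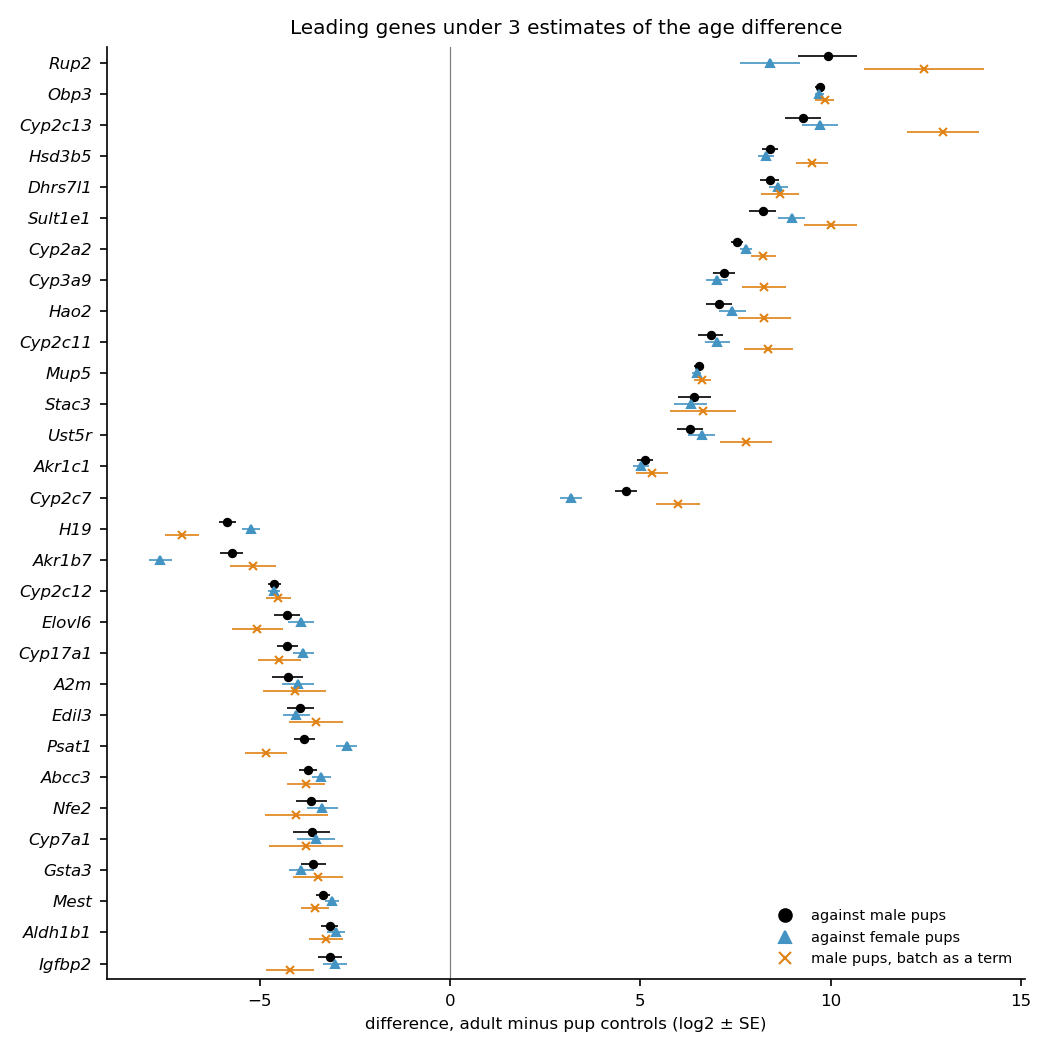
Difference of the 30 leading genes between adult and pup controls (log2 ± SE, n = 5 per group) against male pups, against female pups and against male pups with batch as a term. The error is widest with batch as a term. The 30 were chosen for their size against male pups, so their kept sign in the 3 estimates was nearly fixed in advance.

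The series' design also asks whether the change with age in males depends on dose. At an adjusted p under 0.05 the age difference of the 0 mg/kg males and that of the 50 mg/kg males were unequal for 352 of 14217 genes (2.48%; limma). This contrast contains the same control arrays, so its direction among the genes called here is not independent of their selection, and the values are given side by side. The age difference of Rup2 was 9.92 in controls and 2.13 under DE-71, where the PBDE male pups averaged 12.74 ± 1.07 (SD, n = 5). For Sult1e1 it was 8.22 and 2.81, for Cyp2c13 9.28 and 4.83, and for Hao2 7.07 and 4.43. For Cyp2c7 it was 4.62 and 0.22; the PBDE male pups averaged 14.27 ± 0.19 and the PBDE adults 14.49 ± 0.10, both near the top of the scale, so the second value may be too small. The PBDE adult means of Rup2, Sult1e1 and Cyp2c13 were also above 14. For H19 it was -5.85 and -1.89, with PBDE male pups at 8.87 ± 0.52, and for Nfe2 -3.65 and -0.93. Socs2 differed by 3.31 in controls and 0.61 under DE-71, where the PBDE adults averaged 6.76 ± 0.89. Obp3 stood at 9.71 and 9.78 and Mest at -3.35 and -3.21, and for both the interaction did not pass (adjusted p = 0.904 and 0.873).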

How the data were processed

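Liver RNA of 30 rats in 6 groups of 5 was labelled in 2 cycles from 50 ng of total RNA and hybridised to Affymetrix Rat Genome 230 2.0 arrays, per the labels' protocols. The deposited table holds log2 values that the authors computed by RMA, which corrects background, normalises by quantiles and summarises probes, per the submitters' processing notes; its software version is not given in the sources used here. Quantile normalisation sets all arrays to 1 distribution, and array medians ran from 5.72 to 5.77. Depth does not apply to arrays; their number, 5 per group, limits the precision.

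Of 31099 probe sets 57 control probe sets were left out. limma 3.58.1 in R 4.3.3 fitted 1 mean per group over all 30 arrays, and p-values were adjusted over 31042 probe sets by Benjamini-Hochberg. Genes were named from the platform annotation: 20826 probe sets had 1 gene, 436 several and 9780 none listed, and only the first kind was named. Each of 14217 genes was read from its probe set of the highest mean. A gene was called at an adjusted p under 0.01 and a difference of 2-fold or more, and an age-by-dose interaction at an adjusted p under 0.05. The text names the 15 largest called increases and decreases without overlap of male controls, up to 6 called members per list and members with a known role, and the 10 largest interactions. Of the 10 genes of largest SD in each male control group it names some and not all. Genes named for being lost under an alternative, Insig2, Hlf and Nampt were chosen after their values were seen. Members and lists were chosen with earlier results of these data known, so no count over a list is independent support.

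Array batches were taken from the deposited column labels. The labels call the control animals untreated, while the protocol gives 0 mg/kg in corn oil, and they were taken as vehicle controls. The protocol names 10 males at week 13 without saying whether per dose, and 5 per dose were analysed here. Replicate numbers did not pair the arrays. RNA integrity and hybridisation measures were compared by exact permutation tests (SciPy 1.17.1). Alternatives were other sets of arrays, female pups as reference, batch as a term, a replicate block, the Gapdh measure as a covariate, a filter on low values, repeated quantile normalisation, other moderation, a test against 1.5-fold, another representative probe set and leaving out each array. Promoter sequences came from RefSeq, assembly GRCr8.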

Additional observations from a re-analysis of the deposited data

Results flagged for a closer look

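Of 99 groups of 5 arrays tested, 7 had a single array apart from the others; chance gives about 1 in 20 groups. Mup5 reached 10.79 in 1 adult and 4.06 in 1 female pup, and Abcc3 reached 5.99 in 1 adult against a group median of 4.99. Cyp2c13 reached 6.45 in 1 male pup against a group median of 4.46. Among female pups Stac3 stood at 6.55, Akr1c1 at 4.92 and A2m at 13.94 in 1 array each, the last against a group median of 11.15. The A2m array was female pup control replicate 4. Its mean over the acute phase list was 12.72, against 11.76 to 11.87 on the other female pup arrays, and it was also the highest of them over the neutrophil list.

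In limma's interaction term, DE-71 minus control, the age difference itself differed between doses for 352 of 14217 genes (2.48%), and for 21 of the 33 looked at one by one: the 30 leading genes and those of the 10 largest interactions, which were chosen by this term. Among genes that rose in controls it was -7.79 for Rup2, -5.41 for Sult1e1, -4.45 for Cyp2c13, -4.40 for Cyp2c7, -2.80 for Cxcl9, -2.70 for Socs2, -2.64 for Hao2, -2.50 for Cyp2c11, -1.97 for Ust5r, -1.86 for Dhrs7l1 and -1.21 for Hsd3b5. Among genes that fell it was 3.97 for H19, 2.72 for Nfe2, 2.59 for Asns, 2.11 for Abcc3, 2.08 for Cyp17a1, 2.06 for Elovl6, 2.05 for Psat1, 2.04 for Igfbp2 and 1.26 for Aldh1b1. Cyp2c12 differed from the other genes listed here that fell in the sign of this term, at -1.74: its age difference was -4.63 in controls and -6.37 under DE-71. In all, 52 genes that fell had an interaction past its threshold, and for 49 of them the age difference was smaller under DE-71. The terms contain the same control arrays as the age differences.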

How the results depend on the processing

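With batch as a term 803 probe sets passed in place of 4508, and 140 genes were called higher in place of 214, while 240 were called lower in place of 292. That term rests on equal effects of DE-71 in pups of both sexes; limma found 0 of 31042 probe sets with a sex-by-dose interaction at an adjusted p under 0.05 and 1576 at an unadjusted p under 0.05. With the Gapdh measure as a covariate 2531 probe sets passed, and 211 genes were called higher and 231 lower. Beside Meg3 and Crp, it ended the calls of Mug1 (0.82), Pck1 (0.84), Pklr (-0.56), Gpt, Hal, Acaca, Cd24, Lgr5 and Lum. The calls of Per3, Nr1d2, Usp2, Hlf, Nampt, Nr0b2, S100g and Mt2A were lost with it as well. Tested against 1.5-fold, 127 genes were higher, 153 lower and 16 had an age-by-dose interaction. Leaving out each array in turn gave 3748 to 4288 probe sets, 199 to 222 genes higher, 281 to 312 lower and 230 to 408 interactions, the lowest without male pup control replicate 5, where 352 were found with all arrays. It gave a Gapdh difference of -1.09 to -0.87, an Actb difference of -1.29 to -1.03 and a spike difference of 0.18 to 0.23. Replicate numbers did not pair the arrays, as read from values with each group's mean subtracted. On these residuals same-numbered adult and male pup controls correlated from -0.21 to 0.23. Over all groups 18 of 75 same-number pairs were above 0.1. The mean residual correlation was 0.004 for pairs of the same number and -0.0009 for pairs of other numbers. A replicate block gave 4439 probe sets, 213 genes higher, 293 lower and 336 interactions. Of 3335 combinations of 159 genes and alternatives, 190 lost a call, 13 gained one (Bcl6, Igfals, Insig2, and Xist against female pups) and 0 reversed a called sign; 51 genes lost their call with batch as a term and 12 without some single array. Genes below the array median have compressed differences.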

Other observations

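Some genes varied more among the 5 adults than between the ages. Ugt2b, a glucuronosyltransferase, read 13.68, 5.61, 5.35, 13.17 and 4.95 in adults, near the top of the scale in 2 animals, and 3.70 to 6.29 in male pups (3.70 ± 1.72, adjusted p = 0.126). Scd, the stearoyl-CoA desaturase, read 12.77, 8.96, 13.04, 12.77 and 10.70 in adults and 11.04 to 12.67 in male pups (-0.31 ± 0.71). Ubd, a ubiquitin-like protein induced by interferon, read 9.78, 10.69, 6.33, 10.72 and 6.28 in adults and 8.60, 7.73, 8.06, 6.45 and 5.32 in male pups (1.53 ± 0.85).

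Cdh17, a cadherin, and S100g, a calcium-binding protein, were called and had a wide spread. Cdh17 read 8.26, 9.31, 11.68, 8.62 and 11.53 in adults and 6.67, 5.09, 5.32, 7.85 and 6.28 in male pups (3.64 ± 0.59; adjusted p = 0.104 with batch as a term). S100g read 5.50, 4.46, 5.29, 5.75 and 5.02 in adults and 10.35, 6.25, 6.86, 10.49 and 6.90 in male pups (fall by 2.96 ± 0.63; adjusted p = 0.328 with batch as a term). Male pup controls 1 and 4 were the highest for S100g.

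Male pup control replicate 3 was the highest of the 5 male pup arrays for 9 of the 12 called male-biased genes. It was also the highest for 9 of the 15 leading increases, a pattern noticed after the values were seen. The 12 and the 15 share most of their genes and hold 17 distinct genes, so these counts are not independent. How often this array was the highest over all genes was not counted. The mean over the 12 genes was 6.95 on that array, and it was 5.56 to 6.14 on the other male pup arrays. Without it the age differences of these 17 genes moved by -0.23 to 0.86, and that of Rup2 moved from 9.92 to 10.78.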
